A study of Mus musculus with 12 samples.

Results

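The brains of Norad-/- and Norad+/+ mice were compared by RNA sequencing over every gene that averaged at least 1 FPKM (a level scaled for transcript length and sequencing depth) across 6 brain libraries, which kept 13051 of 24062 genes in the table. Each genotype had 3 libraries, each from the brain of a separate 10-week-old C57BL/6J male. Norad-/- mice carried a Cas9 deletion of the RNA on both alleles and Norad+/+ mice were wild-type. The deletion was held as 3 independent lines backcrossed to the parent strain, and which line supplied each brain is not given in the sources used here. Whole brain was ground, so fewer cells of a type and less RNA per cell cannot be told apart in any value below. Spleen libraries of the same genotypes, also 3 and 3, serve only as a comparison, since the records do not say whether a brain and a spleen with the same number came from the same animal. Another 7472 genes were measured below that mean and 3539 were at 0 in all 6 brain libraries. Just inside the limit were Tec and Ccdc14, each at 1.0002 FPKM, and just outside it were Mroh7 at 0.9998 and 9330162012Rik at 0.9993.

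Norad is a long noncoding RNA of the cytoplasm whose body carries many copies of the sequence that PUMILIO proteins recognise. These proteins, PUM2 among them, bind such PUMILIO response elements (PREs) in the 3′ UTRs of messenger RNAs and recruit enzymes that remove the poly(A) tail, which lowers the messages. By holding PUMILIO proteins, Norad limits what is free to act on those messages, and the brain is among the tissues where it is most abundant.

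The deletion was directed by a pair of guide RNAs, shown because they define the genotype:
sgRNA#1: ggcaacactatccttgggcc
sgRNA#2: tggcctgggttagatgtacc
Neither guide was found in the Norad transcript on either strand (0 of 2). The annotated transcript, ENSMUSG00000102869, is a single exon of 4915 bases on the minus strand of chr2:156388065-156392979 (GRCm38, GENCODE). It holds 11 matches to TGTANATA, of which 6 read TGTATATA, 3 TGTACATA and 2 TGTAAATA, and 3 further matches to the looser TGTANATN. The first, the closest pair and the last strict match in the transcript are given below, with the 8 letters of each element in capitals, because these are the sites that the deletion removed:
Norad first PRE, chr2:156392316-156392335: gtcctgTGTATATAatatga
Norad paired PREs, chr2:156390516-156390544: ctatgcTGTATATAtTGTACATActggac
Norad last PRE, chr2:156389441-156389460: agaaagTGTACATAacggat
The paired elements start at positions 2442 and 2451 of the transcript and are parted by a single base.

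Before the comparison, 2 libraries need naming. Norad+/+ replicate 3 was the shallowest, at an estimated 28.4 M reads against 33.5 to 36.7 M in the other brain libraries, and 6.38% of its genes lay more than 2-fold from the median of the other 5, against 1.49% to 1.89% in each of those. Norad-/- replicate 3 held pituitary hormones. Its growth hormone message Gh stood at 984 FPKM, its prolactin message Prl at 280 and its pro-opiomelanocortin message Pomc at 49.6, while in the other 5 libraries Gh was at most 0.311, Prl at most 0.0945 and Pomc at most 0.883. Values without these libraries are given beside the results they move most.

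Norad was lost from Norad-/- brain, and 1 other gene, Mrpl57, passed the test with it. Norad stood at 206, 259 and 635 FPKM in the Norad+/+ libraries and at 0.00586, 0 and 0.0121 in the Norad-/- libraries. The estimated depths place these last values at or below a few reads, so no fold is given (adjusted p = 0.00077). Mrpl57, a protein of the large subunit of the mitochondrial ribosome encoded on chr14:57826234-57829296, fell from 13.6 ± 0.61 to 5.23 ± 0.0607 FPKM (mean ± SD, n = 3 each). Its libraries read 14.3, 13.2 and 13.4 in Norad+/+ and 5.16, 5.25 and 5.27 in Norad-/-, with a log2 change of -1.37 (SE 0.083, adjusted p = 0.0124). No library of either genotype entered the range of the other. The call of Mrpl57 was kept in 14 of 20 alternative fits and lost in the others, with a replicate block (adjusted p = 0.455), with all 12 brain and spleen libraries in 1 fit (0.576), and without Norad+/+ replicate 1 (0.0703) or Norad-/- replicate 1, 2 or 3 (0.241, 0.0826 and 0.0881).

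Over all genes, limma called 2 lower (0.0153%) and 0 higher (0%) in Norad-/- brain at an adjusted p of 0.05. At an unadjusted p under 0.05 it counted 377 lower (2.89%) and 487 higher (3.73%), or 864 in either direction (6.62%). Groups that did not overlap were found for 856 genes that were lower (6.56%) and 1381 that were higher (10.6%). Most genes differed by little. The median log2 change was 0.024 with a median SE of 0.148, the middle 90% of genes ran from -0.421 to 0.40, and 153 genes lay beyond 1 in either direction, 95 of them below and 58 above. With replicate 3 of Norad+/+ left out the calls became 12 lower and 3 higher, and with both replicates 3 left out 17 lower and 8 higher.

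**Figure D1:**
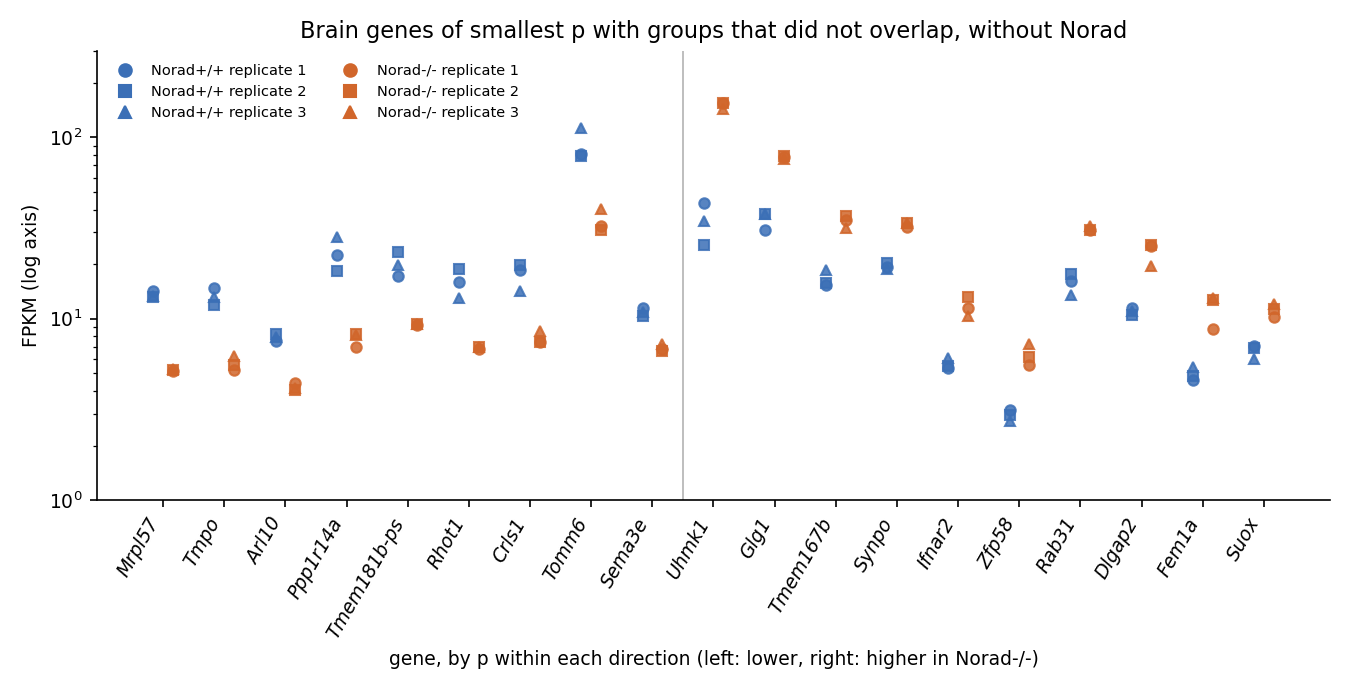
FPKM on a log axis in each brain library for the genes with the smallest p in each direction among those whose groups did not overlap, Norad left out because its Norad-/- values are near 0. Each point is 1 library, with colour for genotype and shape for replicate number. Mrpl57 read 13.2 to 14.3 in Norad+/+ against 5.16 to 5.27 in Norad-/-, and Uhmk1 25.4 to 43.7 against 143 to 154.

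Of the genes on the low side with groups that did not overlap, the next smallest p-values after Mrpl57 missed the adjusted test. They are ordered by p and not by size, and Rbfox1, described further on, had a change of -3.04 at a higher p. Rhot1, the outer membrane GTPase that couples mitochondria to microtubule motors, read 16, 18.9 and 12.9 FPKM in Norad+/+ and 6.82, 7.03 and 7.01 in Norad-/- (log2 change -1.17, SE 0.147, adjusted p = 0.14). Crls1, which makes the inner membrane lipid cardiolipin, read 18.5, 19.7 and 14.2 against 7.41, 7.46 and 8.52 (log2 change -1.14, adjusted p = 0.15). Tomm6, a small subunit of the outer membrane import channel, read 81.4, 79.0 and 112 against 32.6, 31.0 and 40.5 (log2 change -1.38, adjusted p = 0.15). All 3 of these showed a tighter spread in Norad-/- than in Norad+/+, and none of their groups overlapped. With Norad+/+ replicate 3 left out, Rhot1 and Crls1 passed (adjusted p = 0.0316 each), and with both replicates 3 left out Crls1 and Tomm6 did (0.0384 and 0.0319).

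Among the other low genes, Tmpo, which encodes lamina-associated proteins of the inner nuclear envelope, read 14.8, 11.9 and 13.2 FPKM in Norad+/+ against 5.25, 5.59 and 6.21 in Norad-/- (log2 change -1.21, adjusted p = 0.0996). Ppp1r14a, an inhibitor of myosin phosphatase, read 22.4, 18.3 and 28.1 against 7.01, 8.26 and 8.10 (log2 change -1.53, adjusted p = 0.12). Arl10, a small GTPase of the ARF-like family, read 7.54, 8.25 and 7.93 against 4.42, 4.03 and 4.13 (log2 change -0.90, adjusted p = 0.0996). For each of them every Norad-/- library was below every Norad+/+ library. Sema3e, a secreted guidance cue for axons and vessels, had the smallest distance of the group, with 10.4 to 11.4 against 6.61 to 7.25 (log2 change -0.65, adjusted p = 0.178). The pseudogene Tmem181b-ps read 17.2 to 23.4 against 9.26 to 9.37 (log2 change -1.09, adjusted p = 0.121), and reads of its parent gene may be shared with it.

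On the high side the 10 genes were again those of smallest p with groups that did not overlap. Uhmk1, a serine/threonine kinase that acts on RNA-binding proteins, read 43.7, 25.4 and 34.7 FPKM in Norad+/+ and 154, 154 and 143 in Norad-/- (log2 change 2.15, SE 0.201, adjusted p = 0.0996). Glg1, a membrane sialoglycoprotein of the Golgi, read 30.7, 37.8 and 38.0 against 77.7, 78.4 and 75.9 (log2 change 1.13, adjusted p = 0.108). Tmem167b, a small membrane protein, read 15.4, 15.7 and 18.7 against 34.9, 36.9 and 31.6 (log2 change 1.05, adjusted p = 0.12). In all 3 the groups were far apart, and within Norad-/- the libraries lay close together. Tmem167b passed without Norad+/+ replicate 3 (adjusted p = 0.0363), and Uhmk1 without Norad+/+ replicate 2 (0.0386).

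A pair of genes of the postsynaptic side was in the same set. Synpo, the actin-binding protein of the spine apparatus, read 19.2, 20.3 and 18.8 FPKM in Norad+/+ against 32.2, 33.7 and 33.8 in Norad-/- (log2 change 0.77, adjusted p = 0.12). Dlgap2, a scaffold protein of the postsynaptic density, read 11.5, 10.6 and 11.0 against 25.2, 25.6 and 19.5 (log2 change 1.07, adjusted p = 0.127). Rab31, a GTPase of vesicle transport, read 16.1, 17.6 and 13.4 against 31.0, 30.8 and 32.5 (log2 change 1.004, adjusted p = 0.127). Each was higher in 3 of 3 Norad-/- libraries than in any Norad+/+ library. Rab31 passed without Norad+/+ replicate 3 (adjusted p = 0.0485), and Dlgap2 without both replicates 3 (0.0411). Ifnar2, a chain of the type I interferon receptor, read 5.39 to 6.08 against 10.3 to 13.2 (log2 change 1.03, adjusted p = 0.121). The zinc finger gene Zfp58 read 2.73 to 3.14 against 5.54 to 7.27 (log2 change 1.07, adjusted p = 0.127), Fem1a, a substrate receptor of a ubiquitin ligase, 4.57 to 5.39 against 8.79 to 13.1 (log2 change 1.19, adjusted p = 0.239), and Suox, the mitochondrial sulfite oxidase, 6.03 to 7.03 against 10.2 to 12.1 (log2 change 0.74, adjusted p = 0.239).

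PREs were then read in the longest annotated 3′ UTR of these genes. Among 18 of the 20 with an annotated 3′ UTR, 7 (38.9%) held at least 1 TGTANATA, against 3509 of 12356 tested genes (28.4%), and their median 3′ UTR was 1891 bases against 1278.5. Of the 7, Rhot1 and Crls1 were lower and Uhmk1, Glg1, Rab31, Fem1a and Suox were higher in Norad-/- brain. Rhot1 was the member with a closely spaced pair, at positions 238 and 247 of a 3′ UTR of 2048 bases. It is shown with the elements in capitals because it has the same spacing as the pair in Norad above, and the matches of Crls1, Rab31 and Glg1 follow for comparison:
Rhot1 paired PREs, chr11:80266091-80266119, plus strand: atatttTGTAAATAaTGTACATAttcaag
Crls1 PRE, chr2:132866657-132866676, plus strand: atgtcaTGTAAATAggatga
Rab31 PRE, chr17:65652432-65652451, minus strand: tatatgTGTAAATAtggttt
Glg1 PRE, chr8:111157494-111157513, minus strand: aaaaagTGTATATAgtagaa
A match of letters is a description and does not show that the site is bound.

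Some of the largest separations belonged to genes whose levels in single libraries fell on 2 discrete steps. Such genes were sought among all 13051 as those whose 6 log2 values split at a gap of at least 0.8, at least 3 times wider than the range within either step, with at least 2 libraries on each. There were 70 of them. In 4 the steps coincided with genotype, namely Norad, Mrpl57 and Tmpo on the low side and Glg1 on the high side, and in the other 66 libraries of a single genotype stood on both steps. These genes were not weakly expressed, with a median mean of 11.87 FPKM against 9.02 over all genes. They made up 21 of the 153 genes beyond 1 in log2 change. In spleen the same search found 67 genes, 64 of them split within a genotype, and 4 genes were found in both tissues.

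The following examples of such steps were chosen after their values were seen. Rbfox1, a splicing regulator of neurons, read 50.2, 76.1 and 2.93 FPKM in Norad+/+ and 2.68, 2.66 and 2.64 in Norad-/-. Mbnl1, another splicing regulator, read 32.1, 26.7 and 1.37 against 1.35, 18.6 and 1.47. Cntf, ciliary neurotrophic factor, read 1.01, 0.862 and 1.301 against 48.3, 0.943 and 37.0. In each of these, at least 1 library of a group stood with the other group. The gene Zfp91, which overlaps Cntf on the same strand, stayed at 32.4 to 44.4 in every library. Dlgap4, a postsynaptic scaffold, read 47.3, 8.88 and 41.8 in Norad+/+ against 8.22, 8.06 and 47.7 in Norad-/-. The phosphatase gene Ptp4a2 read 8.20, 36.0 and 7.39 against 36.9, 35.7 and 37.3, and the transcription factor gene Csrnp3 4.47, 4.88 and 4.29 against 18.3, 17.4 and 4.03. For Cntf, Ptp4a2 and Csrnp3, leaving out the library that shared a step with the other genotype brought the gene past the threshold. The same occurred for Rbfox1, B3galt5 and Taok3 when Norad+/+ replicate 3 was left out.

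**Figure D2:**
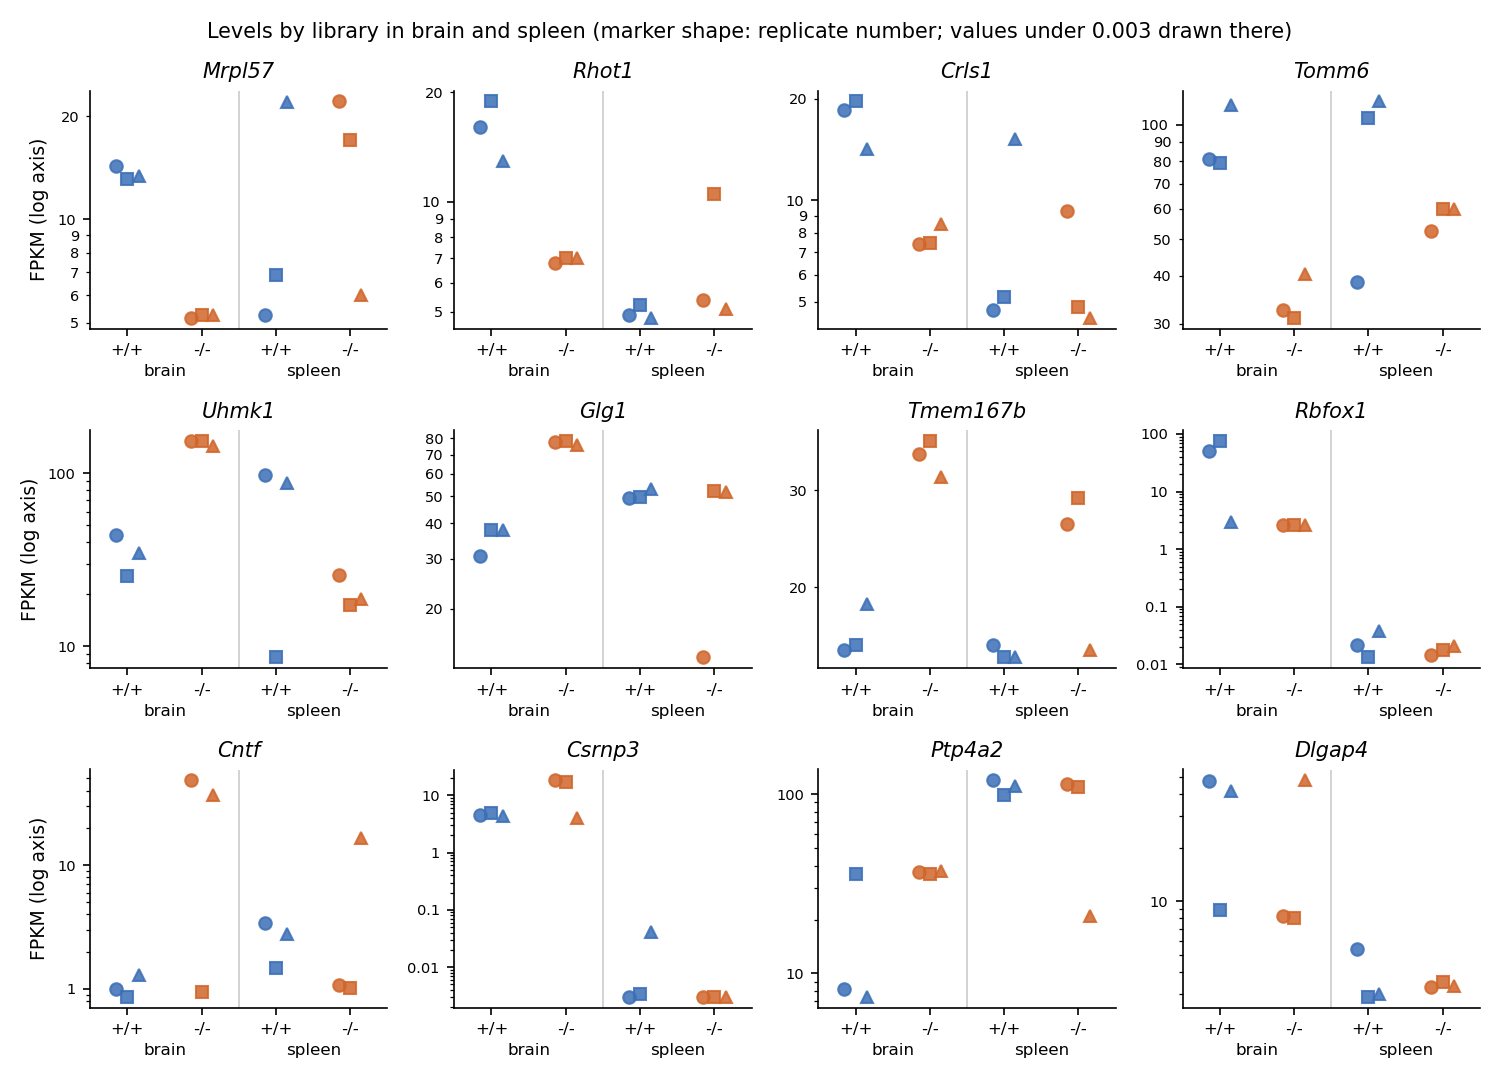
FPKM on a log axis for 12 genes in the brain and spleen libraries of both genotypes, 1 point per library, with colour for genotype and shape for replicate number. Mrpl57 separated the genotypes in brain, but in spleen it read 5.25, 6.87 and 22 (+/+) against 22.1, 17.1 and 6 (-/-). Cntf, Csrnp3, Ptp4a2 and Dlgap4 split within a genotype in brain.

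Spleen showed how far the leading brain genes could move between mice of 1 genotype. The spleen level of Mrpl57 was 5.25, 6.87 and 22 FPKM across the wild-type mice and 22.1, 17.1 and 6 across the knockouts, so that low and high libraries were seen in both genotypes. Uhmk1 read 98.0, 8.59 and 87.7 against 25.9, 17.4 and 18.8. Crls1 read 4.72, 5.18 and 15.2 against 9.29, 4.83 and 4.47. Each of these 3 overlapped between genotypes in spleen. Glg1 stood between 49.3 and 52.9 in 5 spleen libraries and at 13.4 in Norad-/- replicate 1. Rhot1 stood at 4.80 to 5.37 in 5 and at 10.5 in Norad-/- replicate 2. Of the 18 genes of smallest p that also averaged at least 1 FPKM in spleen, 9 (50.0%) spanned more than 2-fold within a spleen genotype, against 946 of 10481 genes (9.03%).

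A few genes kept a tight spread in both tissues. Tmpo was lower in Norad-/- spleen too, at 68.5, 81.2 and 108 FPKM in Norad+/+ against 44.5, 45.6 and 54.6 in Norad-/-. For Tmem181b-ps the wild-type spleens gave 4.82, 6.21 and 6.39 and the knockout spleens 2.71, 2.76 and 2.63, a log2 change of -1.07 beside -1.09 in brain. Synpo lay at 4.01 to 4.75 in all 6 spleen libraries, and its brain change exceeded its spleen change by 0.72 (SE 0.12, adjusted p = 0.163). Tested over all genes as an interaction of genotype and tissue in limma, 0 genes (0%) passed at an adjusted p of 0.05, and 1765 (13.5%) had an unadjusted p under 0.05. With Norad+/+ brain replicate 3 left out 16 genes passed.

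Mitochondrial genes were read as groups, because the study reported mitochondrial gene sets repressed in Norad-/- brain and spleen by gene set enrichment analysis. It also reported lower levels of selected members by qRT-PCR. Neither test was repeated here, and the medians and counts below are other measures. As groups the mitochondrial genes centred near the median of all genes, while single members stood well below it. The 13 mitochondrially encoded genes had no values in these data, so each complex was read from nuclear genes only. Complex I, the entry point of electrons to the respiratory chain, had 22 of 37 tested subunits below 0 with a median log2 change of -0.103, and 1 lower and 0 higher at an unadjusted p under 0.05. Its median was 0.04 with Norad+/+ replicate 3 left out and -0.183 with Norad-/- replicate 3 left out. Without both replicates 3 it was -0.031, with 7 of 37 lower and 0 higher, where 7.26% and 5.73% of all genes were lower and higher. Complexes II and III had 7 of 14 below 0 (median 0.013), complex IV 6 of 12 (median 0.001), ATP synthase 9 of 16 (median -0.048), the TCA cycle enzymes 12 of 24 (median 0.006), the TOM and TIM import machinery 13 of 26 (median 0.012), and the transport, fusion and fission genes 9 of 18 (median 0.015). Among all genes 44.9% were below 0 with a median of 0.024. At an unadjusted p under 0.05, 3 of 12 complex IV genes, 2 of 16 for ATP synthase and 2 of 26 for import were lower. So was 1 of 18 for transport, fusion and fission, and 0 were higher in each of these groups. Complexes II and III and the TCA cycle had 0 lower and 0 higher. Over all genes 2.89% were lower and 3.73% higher.

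Single subunits of the respiratory chain were lower, none past the adjusted test. Atp5g3, a gene for the rotor ring of ATP synthase, read 153, 140 and 216 FPKM in Norad+/+ and 93.4, 96.7 and 107 in Norad-/- (log2 change -0.75, SE 0.182, adjusted p = 0.623). Cox5b, a nuclear-encoded subunit of cytochrome c oxidase, read 46.5, 39.1 and 63.5 against 27.8, 26.6 and 31.3 (log2 change -0.77, adjusted p = 0.623). Cox6a2, the heart and muscle form of another subunit, read 11.2, 12.6 and 10.0 against 7.13, 7.68 and 8.55 (log2 change -0.53, adjusted p = 0.605). These 3 had groups that did not overlap. Cox5a, at 72.7, 42.0 and 57.4 against 34.1, 32.5 and 42.7, did overlap by a narrow margin. In complex I, Ndufs7 read 36.2, 38.2 and 52.8 against 29.4, 28.8 and 34.1, and Ndufa12 51.2 to 52.8 against 39.6 to 48.9.

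The mitochondrial ribosome held both the called gene and members on the other side. Of 47 tested large-subunit genes 22 were below 0 (median 0.02), with 2 lower and 2 higher at an unadjusted p under 0.05. Of 29 small-subunit genes 14 were below 0 (median 0.012), with 0 lower and 2 higher. The shares over all genes were 2.89% lower and 3.73% higher. Mrpl17 read 4.63, 12.5 and 29.2 FPKM in Norad+/+ and 2.73, 2.90 and 2.81 in Norad-/- (log2 change -2.05, SE 0.61, adjusted p = 0.69). Its Norad+/+ libraries spread far more than its Norad-/- libraries. Mrpl50 went the other way at 16.4, 16.8 and 14.0 against 17.5, 32.4 and 30.8, and Mrpl32 read 22.3 to 24.2 against 26.2 to 30.9. In import, Timm10b, a small chaperone of the intermembrane space, read 8.38 to 10.5 against 6.42 to 8.16.

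Genes of defence against reactive oxygen species had 9 of 23 members below 0 and a median log2 change of 0.053. At an unadjusted p under 0.05, beside 2.89% lower and 3.73% higher of all genes, 0 were higher and 1 member was lower. That member was Glrx, glutaredoxin, which reduces glutathionylated proteins. It read 29.5, 24.1 and 36.8 FPKM in Norad+/+ and 14.3, 13.7 and 13.4 in Norad-/- (log2 change -1.10, SE 0.162, adjusted p = 0.239), and its groups did not overlap. For 15 mitochondrial and related genes the study designed qRT-PCR primers. That list was chosen by the study with these tissues in hand and is not independent evidence of a direction. In it 9 of 15 were below 0 (median -0.196), with Rhot1 and Ndufs7 lower and 0 higher at an unadjusted p under 0.05, and the median was 0.027 without Norad+/+ replicate 3.

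**Figure D3:**
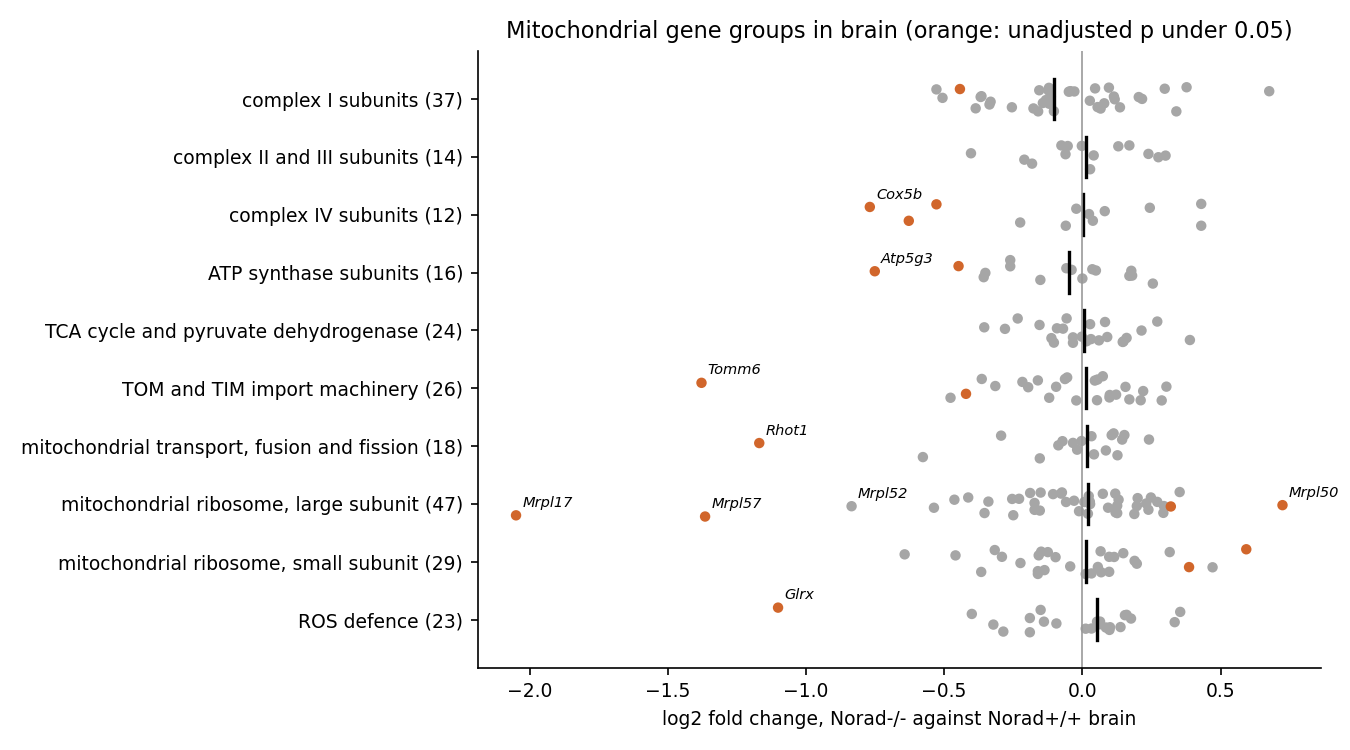
Log2 change of Norad-/- against Norad+/+ brain for every tested member of 10 mitochondrial and redox groups, with the number tested in parentheses. Each point is a gene, orange at an unadjusted p under 0.05, and the bar is the group median. Group medians lie between -0.103 and 0.053, while Mrpl17, Tomm6, Mrpl57, Rhot1 and Glrx lie below -1.

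Of 15 circadian clock genes, 1 was lower and 5 were higher at an unadjusted p under 0.05, beside 2.89% and 3.73% of all genes. The core clock is a loop in which ARNTL and CLOCK activate E-box genes, among them the Per, Cry, Nr1d and Bhlhe repressors, and output factors such as Dbp follow the loop. Bhlhe41, a repressor of the loop, read 9.84, 9.16 and 13.7 FPKM in Norad+/+ and 22.1, 24.8 and 21.6 in Norad-/- (log2 change 1.08, SE 0.168, adjusted p = 0.256). It passed without Norad+/+ replicate 3 (adjusted p = 0.0316). Arntl read 15.7, 14.7 and 13.5 against 20.9, 18.2 and 19.1 (log2 change 0.41, adjusted p = 0.647). Both were higher in every Norad-/- library.

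Of the other loop members, Ciart, a repressor, read 3.75 to 5.43 FPKM in Norad+/+ and 6.21 to 6.50 in Norad-/-. The period gene Per1 read 22, 30.4 and 28.4 against 35.8, 36.6 and 31.8, and the nuclear receptor Nr1d1 48.4 to 54.0 against 59.2 to 61.3. Per2 was on the low side, at 8.06, 8.27 and 10.8 against 6.27, 6.83 and 7.45 (log2 change -0.39, adjusted p = 0.71), as was the output factor Hlf, at 50.8, 49.8 and 92.5 against 43.3 to 44.1. None of these groups overlapped. The log2 change of Hlf was -0.50, and -0.20 without Norad+/+ replicate 3. The output factor Dbp did overlap, at 19.6, 19.9 and 57.6 in Norad+/+ and 19, 19.8 and 21 in Norad-/-, and its log2 change of -0.50 became 0.01 without that library. The median over all 15 was 0.202, and 0.029 without Norad+/+ replicate 3, with 2 lower and 5 higher. The hour at which each brain was taken is not given in the sources used here, and its part in these values was not tested.

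The E-box CACGTG was searched in promoters (windows of equal length around the start, RefSeq, GRCm38, either strand). A gene counted if any of its promoters held the motif. It was found for 5 of 14 clock genes with a listed promoter (35.7%), against 2187 of all 27025 genes with one (8.09%). The list takes in known E-box genes of the loop, so the high share follows from the choice of list and says nothing about genotype. The 5 were Per1, Bhlhe41, Ciart, Cry1 and Tef, and Tef overlapped between genotypes (log2 change 0.26). Nr1d1, also counted higher, was not among the 5. Shown here are the E-boxes of Per1 and Bhlhe41 and the middle match of 3 in Ciart, with the motif in capitals. They were picked by direction, because all 3 genes were higher in Norad-/- brain:
Per1 E-box, chr11:69098777-69098794, plus strand: caagtcCACGTGcaggga
Bhlhe41 E-box, chr6:145865562-145865579, minus strand: gttccgCACGTGagctgg
Ciart E-box, chr3:95882275-95882292, minus strand: gggaggCACGTGcagaac
Arntl, which encodes a factor that binds E-boxes, had no CACGTG in this window.

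Immediate early genes, which neurons switch on within minutes of activity, were also mostly on the high side, but averaged over the list the genotypes overlapped. On the log2 scale the Norad+/+ libraries stood at 0.138, -0.289 and -0.123 from the mean of the list. The Norad-/- libraries stood at 0.262, 0.121 and -0.109. Of 15 tested, 4 were below 0, the median was 0.244, and 5 were higher and 0 lower at an unadjusted p under 0.05, beside 3.73% and 2.89% of all genes. Fos, a subunit of the AP-1 transcription factor, read 17.4, 17.1 and 17.8 FPKM in Norad+/+ and 26.1, 22.2 and 25.2 in Norad-/- (log2 change 0.49, SE 0.098, adjusted p = 0.464). Arc, a synaptic protein translated in dendrites, read 58.4, 57.0 and 62.6 against 87.6, 77.4 and 90.3 (log2 change 0.52, SE 0.106, adjusted p = 0.479). Norad+/+ libraries lay within a few units of each other for both. The zinc finger factors Egr2 and Klf4 read 4.75 to 7.36 against 8.16 to 10.4 and 1.61 to 2.15 against 2.39 to 2.92, and the AP-1 subunit Fosb 5.26 to 8.19 against 8.39 to 10.2. Without Norad+/+ replicate 3 the count was again 0 lower and 5 higher, where 5.01% and 5.92% of all genes were counted. Without Norad-/- replicate 3 it was 0 and 4, where the shares of all genes were 2.52% and 1.98%.

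Members of the same group differed in how they split. Egr1 read 154, 153 and 235 FPKM in Norad+/+ and 190, 204 and 201 in Norad-/-, so a single library placed its groups in overlap. Of the 4 members below 0, Egr4 and Cyr61 had the smallest p, and both overlapped between genotypes. Egr4 read 8.515, 3.55 and 4.50 against 3.56, 3.64 and 3.61 (log2 change -0.50). Cyr61 read 6.95, 4.92 and 9.93 against 5.96, 7.465 and 3.20 (log2 change -0.41). Egr3, a relative outside the list and chosen after its values were seen, read 43.0, 45.2 and 32.5 against 103, 90.0 and 75.3 (log2 change 1.15, SE 0.177, adjusted p = 0.256). In spleen Fos stood at 1.18 to 3.01 in all 6 libraries, and its brain change exceeded the spleen change by 0.84 (SE 0.327, adjusted p = 0.311).

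**Figure D4:**
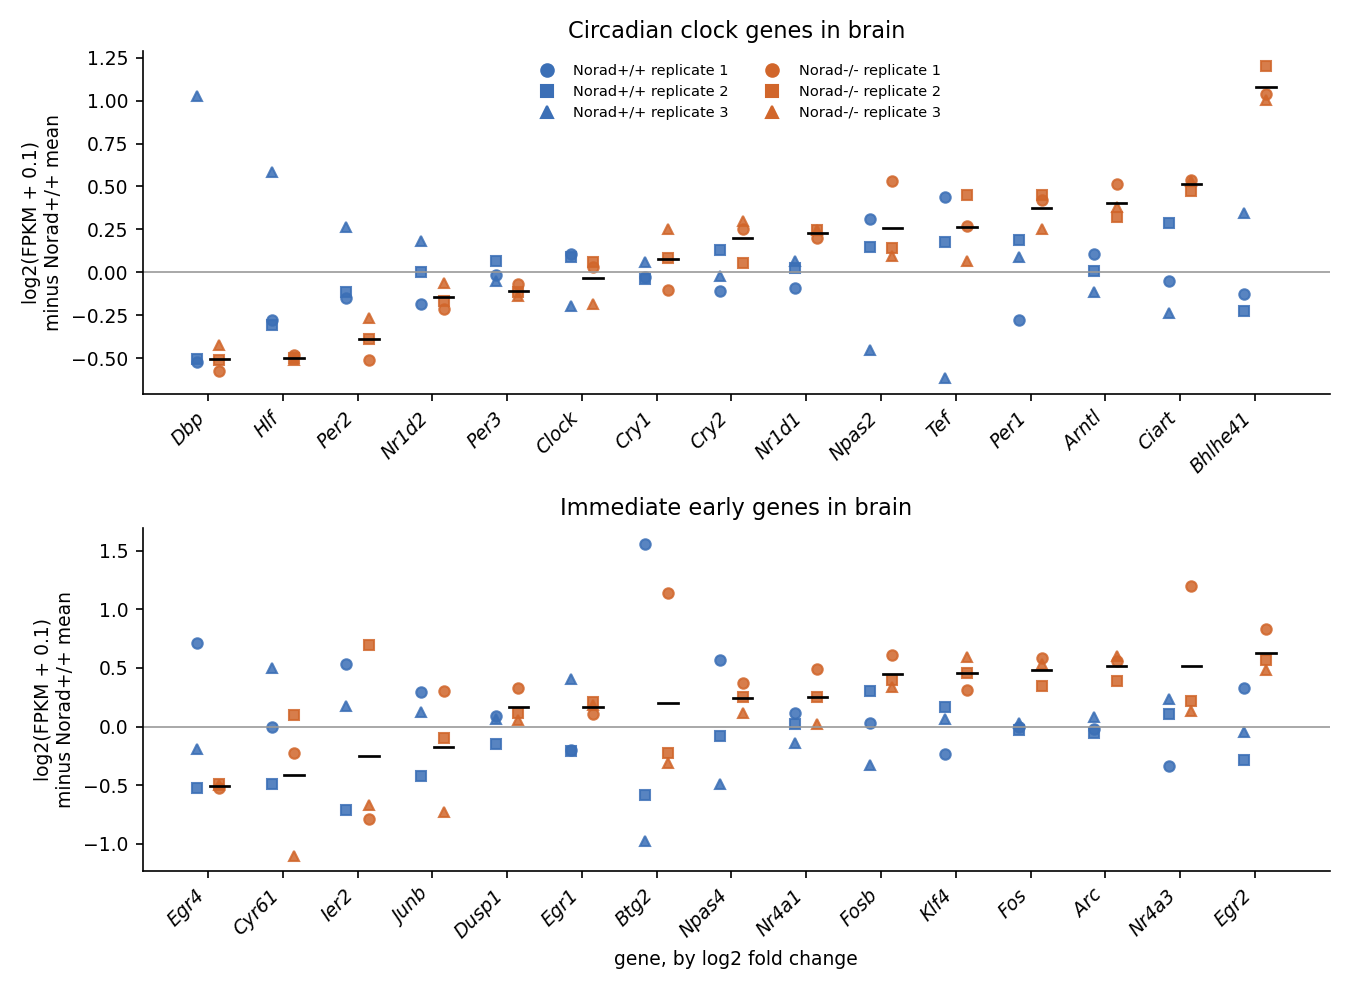
Level of each clock gene (upper) and immediate early gene (lower) in every brain library, as log2(FPKM + 0.1) minus the Norad+/+ mean, ordered by change. Points are libraries, with colour for genotype and shape for replicate number, and the bars are Norad-/- means. Norad+/+ replicate 3 is far above the others for Dbp and Hlf, while for Fos and Arc all 3 Norad-/- libraries lie above all Norad+/+ libraries.

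Apart from GABA-A receptor genes, which stood higher, synaptic and neuronal gene groups centred near the median of all genes, with members on both sides. Postsynaptic scaffolds had 12 of 22 below 0 (median -0.037), with Homer1 and Dlgap3 lower and Synpo and Dlgap2 higher at an unadjusted p under 0.05. The shares over all genes were 2.89% lower and 3.73% higher. Homer1, which links glutamate receptors to internal calcium stores, read 39.2, 41.9 and 50.2 FPKM in Norad+/+ and 26.4, 32.0 and 34.9 in Norad-/- (log2 change -0.49, adjusted p = 0.69). Dlgap3 read 44.7 to 55.6 against 37.2 to 39.0, the opposite side to its relative Dlgap2. Ionotropic glutamate receptor genes had 11 of 18 below 0 (median -0.025), 2 lower and 0 higher. GABA-A receptor genes had 3 of 13 below 0 (median 0.142), with Gabrg1 at 5.28 to 7.64 against 8.93 to 9.91 as the member counted higher. Of 27 genes for synaptic vesicles and release 16 were below 0 (median -0.061), and the members counted lower were the calcium sensor Syt2, at 20.4 to 21.8 against 16.1 to 18.1, and the vesicle protein Sv2c, at 21, 39.7 and 11.2 against 10.2, 10.9 and 6.73.

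Markers of excitatory neurons contained a pair on opposite sides at similar distances. Camk2a, the alpha subunit of the calcium/calmodulin-dependent kinase of synapses, read 411, 375 and 266 FPKM in Norad+/+ and 695, 651 and 613 in Norad-/- (log2 change 0.92, SE 0.184, adjusted p = 0.455). Neurod6, a transcription factor of cortical and hippocampal pyramidal neurons, read 95.6, 82.2 and 157 against 54.3, 52.1 and 57.9 (log2 change -0.97, SE 0.241, adjusted p = 0.625). Neither group overlapped. The 10 markers together had 5 below 0 and a median of 0.032.

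The labelled tissue was checked against markers of cell types and brain regions, and the part of dissection in their values was not tested. Pan-neuronal markers had 6 of 12 below 0 (median -0.012), astrocyte markers 8 of 11 (median -0.075), oligodendrocyte markers 7 of 13 (median -0.01), microglia 4 of 12 (median 0.065) and endothelium 8 of 10 (median -0.086). At an unadjusted p under 0.05 these held Opalin of myelin, higher at 22.5 to 27.2 against 30.1 to 35.3 FPKM, and Flt1 of vessels, lower at 12.1 to 13.0 against 9.64 to 10.7. Regional markers varied more. A list for hindbrain and spinal cord, made up of Hox genes and the glycine transporter gene Slc6a5, had 4 of 10 members tested, all 4 below 0 with a median of -0.82. Slc6a5 overlapped between genotypes, at 10.8, 18.8 and 6.77 against 8.95, 12.7 and 5.15. Hoxb5 read 3.18, 4.32 and 2.88 against 1.87, 2.27 and 1.61, Hoxa5 1.58 to 2.07 against 0.698 to 1.2, and Hoxc4 1.21 to 2.65 against 0.817 to 1.28. Every Norad-/- library held less Hoxb5 and Hoxa5 than any Norad+/+ library.

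Cerebellar markers were below 0 in 11 of 12 genes with a median of -0.142, but their order followed libraries across genotypes. Norad+/+ replicates 1 and 2 and Norad-/- replicate 3 stood 0.277, 0.257 and 0.276 above the mean of the list on the log2 scale, and Norad+/+ replicate 3 and Norad-/- replicates 1 and 2 stood at -0.236, -0.352 and -0.221. At an unadjusted p under 0.05, 0 of the 12 were lower. Without both replicates 3 the median was -0.523 and 9 of the 12 were lower, beside 7.26% of all genes. Cbln1, a granule cell protein that builds synapses, read 115, 136 and 80.8 FPKM in Norad+/+ and 66.0, 76.7 and 89.7 in Norad-/-, and Neurod1 58.9 to 64.2 against 41.4 to 58.1. Markers of striatal projection neurons were on the other side, 2 of 11 below 0 with a median of 0.192. The phosphodiesterase Pde10a read 13.7, 14.6 and 8.89 against 17, 26.5 and 28.1, and the dopamine receptor Drd1a 6.00 to 6.90 against 7.13 to 8.42. The 2 members below 0, Ppp1r1b and Drd2, overlapped between genotypes (log2 change -0.126 and -0.045). So did Penk (0.033), the striatal marker of highest mean. At an unadjusted p under 0.05, 3 of 11 striatal markers were higher, beside 3.73% of all genes. Without Norad-/- replicate 3 it was 1 of 11, beside 1.98%. The part of dissection in the neuronal results above was not tested.

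**Figure D5:**
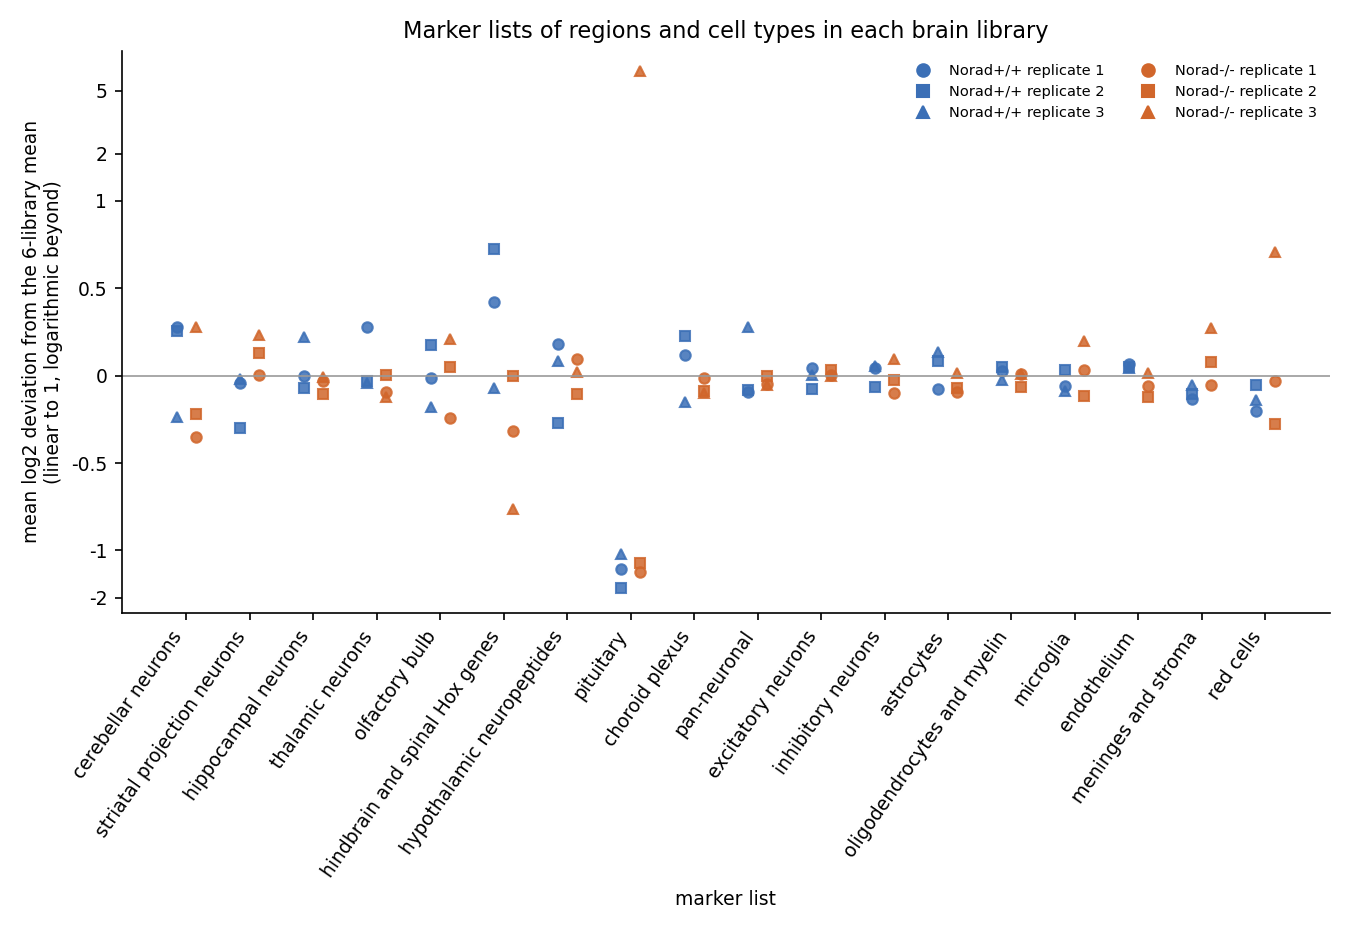
Mean log2 deviation of each marker list in each brain library from the mean of the 6 libraries, on an axis that is linear to 1 and logarithmic beyond. Points are libraries, with colour for genotype and shape for replicate number. Norad-/- replicate 3 is alone above 5 for pituitary markers, and cerebellar markers split into 0.257 to 0.277 and -0.352 to -0.221 across genotypes.

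Around the deletion on chromosome 2, neighbours within 500 kb of Norad were read for each library. The nearest genes overlapped between genotypes, Cnbd2 at 1.299 to 1.801 FPKM over all 6 libraries and Epb41l1 at 81.2, 69.4 and 29.99 in Norad+/+ against 82.3, 77.1 and 71.0 in Norad-/-. Of the 19 tested neighbours 4, all farther out, had groups that did not overlap (21.1%), beside 17.1% of all genes. Scand1, a protein with a SCAN domain at 75.4 kb, read 9.24, 2.49 and 6.13 against 1.54, 1.32 and 1.001 (log2 change -1.96, adjusted p = 0.605). Romo1, a mitochondrial membrane protein at 242.3 kb, read 24.5, 19.3 and 80.4 against 8.88, 10.3 and 14.2 (log2 change -1.62, adjusted p = 0.709). The noncoding RNA 5430405H02Rik at 451.4 kb read 1.91 to 2.005 against 1.28 to 1.52, and Sla2, an adaptor of antigen receptor signalling at 479.5 kb, 5.17 to 6.32 against 6.34 to 7.72. Dlgap4, whose 2 steps are given above, lies 220.7 kb away. These neighbours were picked out after their values were seen, and the median change of all chromosome 2 genes was 0.023.

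Pum2, which encodes a PUMILIO protein that Norad is known to bind, overlapped between genotypes, at 15.1 to 19.3 FPKM in Norad+/+ and 16.6 to 20.7 in Norad-/-, a log2 change of 0.08 (SE 0.138). A list of 25 tested genes, for PUMILIO proteins, their partners, the deadenylases and the decapping factors, together with Brat1, had 7 below 0 and a median of 0.078, and -0.001 without both replicates 3. At an unadjusted p under 0.05, the deadenylase subunits Cnot3 (21.4 to 22.3 against 18.2 to 19.5) and Cnot6 (8.11 to 10.7 against 11.3 to 12.2) were on opposite sides, and Brat1, a DNA damage response factor, read 3.06 to 3.40 against 3.66 to 3.94. That made 1 lower and 2 higher of the 25, beside 2.89% and 3.73% of all genes. Without Norad-/- replicate 3 none of the 25 (0 lower and 0 higher) was counted.

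Genes of genome maintenance were also read, since PUMILIO targets include them. DNA replication genes had 5 of 23 below 0 (median 0.06). At an unadjusted p under 0.05, beside 2.89% lower and 3.73% higher of all genes, 0 were lower and 2 higher. These were the origin recognition subunits Orc4, at 12.8 to 15.6 against 16.5 to 23.0 FPKM, and Orc2, at 7.29 to 8.45 against 9.07 to 10.8, and without Norad-/- replicate 3 the count was 0 and 0. Sister chromatid cohesion and segregation genes had 14 of 22 below 0 (median -0.076), with the cohesin deacetylase Hdac8 lower at 10.2 to 13.2 against 8.18 to 9.57. A further 9 replication and 10 segregation genes were below the mean of 1 FPKM in brain.

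Cytosolic ribosomal protein genes had 19 of 50 below 0 (median 0.072), 0 lower and 5 higher at an unadjusted p under 0.05 beside 2.89% and 3.73% of all genes, among them Rpl35a at 17.5 to 18.3 FPKM in Norad+/+ against 20.1 to 25.4 in Norad-/-. Without Norad-/- replicate 3 the median was 0.011 with 1 higher, and without Norad+/+ replicate 3 it was 0.213 with 11 higher, where 1.98% and 5.92% of all genes were higher. Another 26 of the 76 members averaged below 1 FPKM in these tables, although every cell uses them, so a low listed level of such a gene is not a low level in brain. Small RNAs caught in the libraries were higher on balance, snoRNA genes with 6 of 33 below 0 (median 0.456) and microRNA genes with 37 of 116 (median 0.3). The snoRNA genes were lowest in Norad+/+ replicate 3, at -0.378 from the mean on the log2 scale, and highest in Norad-/- replicate 3, at 0.443.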

How the data were processed

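The authors sequenced poly(A)-selected, stranded libraries of whole-brain RNA as single reads, used TopHat2 2.0.12 for alignment to GRCm38, discarded reads without a unique position, and derived the deposited FPKM values with StringTie 1.2.2, per the submitters' processing notes. The aligner and FPKM values set what could be seen, since genes with near-identical copies lose reads. No counts were used here, so the edgeR 3.8.6 test of the authors was not repeated. The scale for all tests was log2(FPKM + 0.1), on which changes of low genes are understated. Genes averaging 1 FPKM or more in the 6 brain libraries entered a trended fit of limma 3.58.1 (R 4.3.3), with Benjamini-Hochberg adjustment over all 13051 genes and a threshold of 0.05. The steps were tested on simulated data. Depth was estimated from the FPKM of 1 read, so it is approximate. Each of the 3 libraries per genotype is taken as 1 mouse. The table has 0 columns of no sample.

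Named genes are the 10 of smallest p in each direction with groups that do not overlap, those past the threshold in the full fit or with any library left out, up to 3 of highest mean and up to 2 of smallest p per direction in each described list, those of the study's qRT-PCR list with Pum2, Epb41l1, Cnbd2 and Neat1, and the 5 farthest above or below in each library. Other members of a list counted at an unadjusted p under 0.05, and genes said to be so, were chosen after their values were seen. Some genes that the rule names are not reported here. Members and lists were chosen with earlier results of these data known. PREs and E-boxes were searched in GENCODE transcripts and RefSeq promoters of GRCm38. Alternatives were other pseudocounts (0.01 and 1), filters, scalings and variance models, library weights, a replicate block, all 12 libraries in 1 fit, and each library left out. Python 3.11.15, pandas 2.3.3, numpy 2.4.6 and matplotlib 3.10.9 were used.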

Additional observations from a re-analysis of the deposited data

Results flagged for a closer look

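Over all 13051 genes, 277 (2.12%) had groups that overlapped in neither tissue and lay in opposite directions in brain and spleen, and 5 of the genes named here are among them. The interaction term of limma, fitted over all genes, passed for 0 of the 277. Rab31 was higher in Norad-/- brain and lower in Norad-/- spleen, at 7.86, 9.27 and 9.24 FPKM in Norad+/+ against 6.23, 6.98 and 7.45, and the brain change exceeded the spleen change by 1.35 on the log2 scale (SE 0.165, adjusted p = 0.0698). Arl10 was lower in Norad-/- brain and higher in Norad-/- spleen, a difference of -1.303 (SE 0.291, adjusted p = 0.212). In spleen it read 3.27, 3.29 and 3.06 in Norad+/+ against 3.56, 6.56 and 3.34 in Norad-/-. Norad-/- spleen replicate 2 thus stood apart, and the other Norad-/- spleens lay just above Norad+/+. Dlgap2 was higher in Norad-/- brain, while in spleen it was listed at 0.134 or less in every library, and the difference was 1.603 (SE 0.344, adjusted p = 0.201). Orc2 was higher in Norad-/- brain and lower in spleen, at 15.2, 15.9 and 21.9 against 10.8, 10.5 and 12, a difference of 0.95 (SE 0.199, adjusted p = 0.178). Hspa1b, an inducible heat shock protein, read 4.94, 3.85 and 1.25 FPKM in Norad+/+ brain and 0.49, 0.426 and 0.812 in Norad-/- brain, but 0.285, 0.52 and 0.649 in wild-type spleens against 13.5, 12.4 and 2.67 in knockout spleens, a difference of -5.98 (SE 0.895, adjusted p = 0.163).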

How the results depend on the processing

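Norad passed in the full fit and in each alternative run, while Mrpl57 passed in the full fit and in 14 of 20 alternatives, with a log2 change of -1.39 to -1.23 throughout. It missed the threshold with a replicate block (adjusted p = 0.455), with all 12 libraries in 1 fit (adjusted p = 0.576), and without Norad+/+ replicate 1 (0.0703) or Norad-/- replicate 1, 2 or 3 (0.241, 0.0826 and 0.0881). The count of 2 lower and 0 higher became 83 and 36 with library weights, 5 and 2 with 12 libraries in 1 fit, 17 and 8 without replicate 3 of both groups, and 1 to 12 lower and 0 to 3 higher with 1 library left out, highest without Norad+/+ replicate 3. The replicate block gave 1 lower and 0 higher. Same-numbered brain libraries had deviations that correlated at 0.061, 0.068 and 0.11, so the numbers were not treated as pairs. Each library correlated best with its own number, a hint from the data only. The interaction count of 0 became 2 when genes had to average 1 FPKM in both tissues, 3 with quantile normalization, 2 with equal medians and 0 to 16 with 1 library left out. Of calls at an unadjusted p under 0.05, 56.4% were higher, against 46.4% with equal medians, 47.7% with the block and 44.0% without Norad-/- replicate 3.

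Of 97 genes in the text, 4 changed sign in some alternative. With 1 library left out Dbp ran from -0.763 to 0.011, positive without Norad+/+ replicate 3, Gh from -1.135 to 5.497 and Prl from -0.479 to 5.246, both negative without Norad-/- replicate 3, and Pum2 from -0.014 to 0.17. Without both replicates 3 Gh was -0.684 and Prl -0.48. Pum2 was -0.095 with library weights, -0.009 without Norad+/+ replicate 3, -0.014 without Norad-/- replicate 3 and -0.105 without both. Of 39 list medians, 18 kept their sign throughout. The cause was not tested. With 3 libraries per genotype and FPKM alone, small changes and low genes could not be resolved.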

Other observations

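Stress and reactive genes held single members with wide differences. Lcn2, lipocalin 2 of reactive astrocytes and neutrophils, read 1.92, 3.05 and 6.94 FPKM in Norad+/+ brain and 0.463, 0.495 and 1.15 in Norad-/- brain (log2 change -2.25, SE 0.521, adjusted p = 0.605). Reactive glia markers had 4 of 11 below 0 with a median of 0.108, the others at an unadjusted p under 0.05 being Lyz2, a lysozyme of myeloid cells, at 9.31, 16.9 and 11.4 against 8.42, 8.21 and 8.74, and S100a6 at 2.99 to 3.46 against 3.84 to 6.00. Heat shock genes had 8 of 9 below 0 with a median of -0.103, and -0.019 without Norad+/+ replicate 3. Hspa1b was the member counted lower, and it passed without both replicates 3 (adjusted p = 0.044). Both Lcn2 and Hspa1b averaged below 1 FPKM in Norad-/- brain and met the filter through their Norad+/+ values.

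Of 9 choroid plexus markers 6 were below 0 (median -0.158, and -0.048 without Norad-/- replicate 3), among them Ttr, the thyroxine carrier made there, at 373, 593 and 632 FPKM in Norad+/+ against 366, 346 and 365 in Norad-/-. Markers of the meninges had 3 of 10 below 0 (median 0.155), with the matrix proteoglycans Lum, at 1.22 to 1.28 against 1.59 to 2.17, and Ogn, at 5.15 to 5.75 against 6.08 to 7.66, higher at an unadjusted p under 0.05. Glucocorticoid target genes had 3 of 8 below 0 (median 0.191, but -0.051 without Norad-/- replicate 3, the library with pituitary hormones), and Errfi1, a feedback inhibitor of the EGF receptor, read 14.8, 17.9 and 11.8 against 25.2, 26.7 and 18.9 without overlap. None of these genes passed the adjusted test in limma over all 6 libraries.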
